A study of Mus musculus with 6 samples.

Results

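The genes described here carry glucose through the pentose phosphate pathway or supply NADPH in the cytosol or, for H6pd, in the endoplasmic reticulum. Their signals were followed in epididymal white adipose tissue (WAT) of mice after timed sleep restriction (TSR). The genes were chosen by name: G6pdx, Pgls, Pgd, Rpia, Rpe, Tkt, Taldo1, Me1, Idh1 and H6pd. Of these 10 genes, 9 were measured by 17 of the 22690 probe sets of the array, counting the probe sets that the platform annotation gives to that symbol alone. For G6pdx, which encodes the first enzyme of the pathway, the annotation used here lists no probe set under the symbol alone, and it was not analysed here. The study's supplement lists a probe set shared by G6pd2 and G6pdx among those at least 2-fold up after TSR. That probe set does not tell these genes apart and is not among those counted here. The 17 probe sets covered Pgd with 4, Rpe with 3, Tkt, Me1 and Idh1 with 2 each, and Pgls, Rpia, Taldo1 and H6pd with 1 each.

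WAT of male C57BL/6 mice, 9 to 11 weeks of age by the study's methods, was taken at Zeitgeber time (ZT) 18, in the middle of the dark phase. The 3 control samples came from undisturbed mice. The 3 TSR samples came from mice kept awake by gentle handling for 6 h at the start of the light phase on each of 5 days, and were taken on the last of them. Both groups were wild-type mice fed standard chow, and the tissue sample holds all cells of the fat pad and not adipocytes alone. One array was hybridised per sample, and neither labels nor methods say whether a sample was 1 animal or a pool, and p-values therefore reflect no more than how these 6 samples varied.

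The pentose phosphate pathway branches from glycolysis at glucose-6-phosphate. Its oxidative branch makes NADPH and ends in a pentose phosphate, and its non-oxidative branch interconverts sugar phosphates and returns carbon to glycolysis or leaves ribose for nucleotides. Cytosolic malic enzyme and cytosolic isocitrate dehydrogenase make NADPH as well, from malate and isocitrate. In adipocytes much of this NADPH is spent on fatty acid synthesis, and the rest serves sterol synthesis and the reduction of glutathione and thioredoxin.

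Values are MAS5 signal intensities, on a linear scale that the authors brought to one target per array, and levels of different probe sets are not compared. The median signal of an array was 127 to 141. Its 99th percentile ran from 8762 to 9270.5 in control and from 7353 to 7934 after TSR. Log2 signals correlated across probe sets with r between 0.991 and 0.993 within groups and between 0.962 and 0.965 across groups. All 8 measured adipocyte markers lay above the 25th percentile of the arrays. This does not single out the tissue, since no measured hepatocyte, macrophage, endothelial or mesothelial marker lay below it in all arrays. Other things moved with the groups. Hepatocyte markers were the clearest case, since for 33 of the 34 measured the highest control value lay under the lowest TSR value. The summed signal of these 33 was between 810.02 and 893 in control and between 16034 and 16544 after TSR. The one that was lower was Cyp2e1, with a mean signal of 16621 in control and 12455 after TSR. With it included, the sum over all 34 ran from 15790 to 19576 in control and from 26976.5 to 30533 after TSR. All 10 macrophage markers were lower in every TSR sample (summed signal 20967 to 21787 in control and 14601 to 14712 after TSR). Of the 8 adipocyte markers, 5 were apart with TSR below and 2 with TSR on top. Over all tested probe sets, 25.2% were apart with TSR below and 31.4% with TSR on top. The log2 signal of 5′ probe sets minus that of 3′ probe sets was higher for beta-actin in all TSR samples (-0.67 ± 0.0013 against -1.22 ± 0.012, SD, n = 3) and Gapdh (0.13 ± 0.054 against -0.52 ± 0.066). It was also higher, with groups apart, for the bacterial control RNAs dap (by 1.52), thr (1.06), phe (0.71) and lys (0.49), which are not RNA of the tissue, and for Pcx (0.33), while the groups overlapped for Tfrc. The part of these differences in the results that follow was not tested, and fewer cells of a type and less RNA per cell cannot be told apart in such samples.

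After TSR most of the probe sets for these genes gave higher signals, and no probe set fell by the test. TSR was compared with control on log2 signals by limma, with Benjamini-Hochberg adjustment over the 14707 probe sets left after the dimmest 35% had been removed, and a threshold of 0.05. The test covered 16 of the 17 probe sets, and 12 of them rose, 4 did not pass and 0 fell. Over all tested probe sets, 25.6% rose and 21.0% fell. The 12 that rose were also the ones whose groups were fully apart with TSR on top, as for 31.4% of all tested probe sets, while 0 were apart with TSR below, as for 25.2%. At least 2-fold rises were seen in 5 of the 16, against 2.21% of all tested probe sets. By the brightest probe set of each gene, 6 of 9 genes rose, namely Pgls, Pgd, Rpia, Rpe, Taldo1 and Me1, against 24.0% of the 8619 genes tested, and 23.0% of those fell. Tkt, Idh1 and H6pd did not pass by their brightest probe set, but Tkt rose by the other one. The median log2 fold change of the 9 genes was 0.28, against 0.01 over all genes tested. Of all calls across the array 55.0% were rises, which became 35.5% when each array was centred on its median, a step that moved the median log2 fold change of all tested probe sets from 0.04 to -0.07. With that centring, 2434 of the 14707 tested probe sets rose and 4420 fell. Of the 16 probe sets of these genes, 11 rose and 2 fell, namely the brighter one of Idh1 and that of H6pd.

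**Figure D1:**
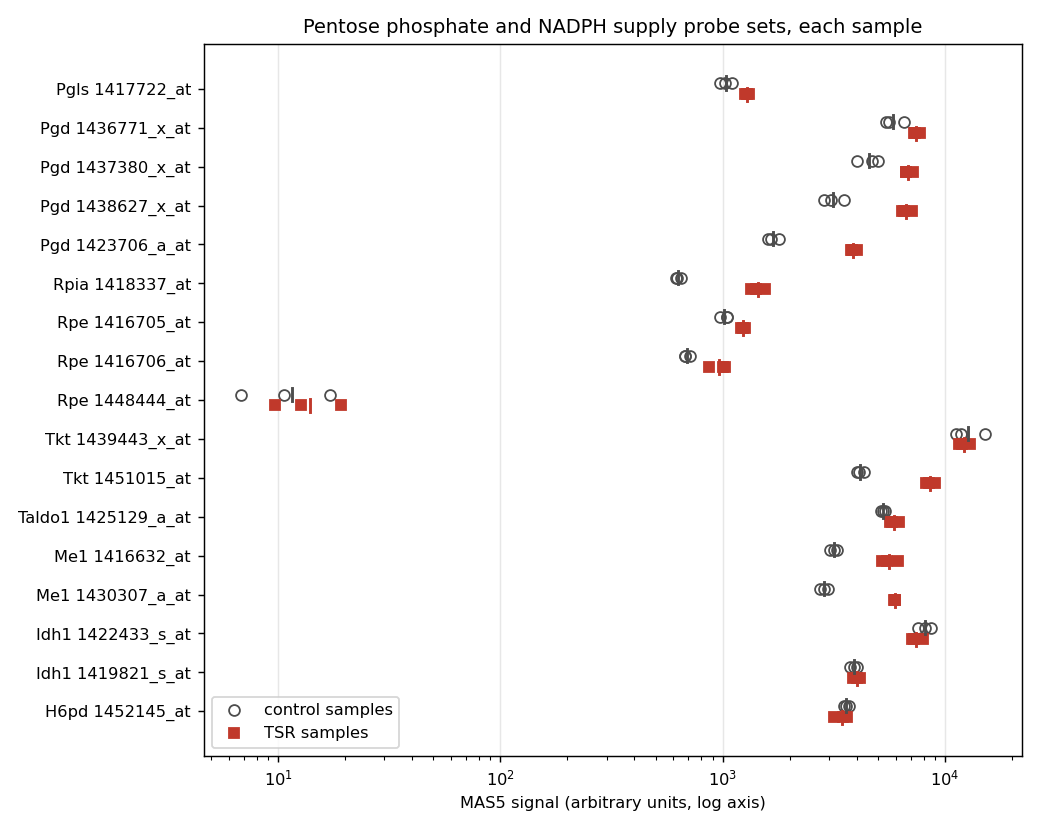
MAS5 signal (log axis, arbitrary units) of the 17 probe sets with a point per sample (open circles, 3 control; filled squares, 3 TSR) and a short vertical line at each mean. The groups are apart for Rpia and for all 4 probe sets of Pgd, and overlap for Idh1, H6pd, the brighter probe set of Tkt and the dimmest one of Rpe.

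In the oxidative branch, Pgls encodes the lactonase that hydrolyses the product of glucose-6-phosphate dehydrogenase. Its signals were 1027, 1106 and 968 in the control samples and 1288, 1313 and 1256 in the TSR samples. All TSR samples lay above all control samples, by a ratio of means of 1.24 (log2 fold change 0.32, standard error 0.06, limma adjusted p = 0.0019).

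Pgd encodes 6-phosphogluconate dehydrogenase, which makes the second NADPH of the branch and releases the pentose phosphate. By its dimmest probe set, 1423706_a_at, it gave 1597, 1641 and 1795 in control and 3996, 3831 and 3773 after TSR (log2 fold change 1.21, standard error 0.05, limma adjusted p = 7.9e-07). The probe set 1438627_x_at gave 3075, 3522 and 2846 in control and 6547, 7104 and 6432 after TSR. Both more than doubled, with ratios of means of 2.31 and 2.13. The remaining pair of probe sets showed smaller rises. In 1437380_x_at the signals went from 4676, 5013 and 3997 to 6693, 7194 and 6650.2, a log2 fold change of 0.59 (limma adjusted p = 4.1e-04). In 1436771_x_at, the brightest, they went from 5420.3, 5613 and 6537 to 7239, 7748 and 7295, a ratio of 1.27 (limma adjusted p = 0.0040). The groups were apart in all 4 probe sets, so that the direction was shared and the size was not.

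The non-oxidative branch opens with an isomerase and an epimerase that act on ribulose-5-phosphate. Rpia encodes the isomerase, which makes ribose-5-phosphate. It gave 649.5, 625 and 616 in the control samples and 1418, 1543 and 1344 in the TSR samples. The TSR samples were more than 2-fold above the control samples, with a ratio of means of 2.28 and a 95% interval of the fold from 2.07 to 2.50 (log2 fold change 1.19, standard error 0.06, limma adjusted p = 1.7e-06). Only 1.68% of all genes tested rose at least 2-fold by their brightest probe set, and among the 9 genes Rpia was the one that did.

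Rpe encodes the epimerase, which makes xylulose-5-phosphate from the same substrate. By its brightest probe set, 1416705_at, it gave 1041, 969.9 and 1043 in control and 1232, 1265 and 1209.96 after TSR, a ratio of 1.21 (log2 fold change 0.28, standard error 0.05, limma adjusted p = 0.0016). The probe set 1416706_at gave 675, 674 and 713 in control and 997, 1024 and 867 after TSR, a ratio of 1.40. The groups were apart in both, with smaller folds than for Rpia. The third, 1448444_at, lay below the 25th percentile of every array, with 10.6, 17.1 and 6.80 in control and 9.70, 19.3 and 12.7 after TSR. This probe set was left out of the test as too dim, and its groups overlapped.

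Transketolase, encoded by Tkt, moves 2-carbon units between sugar phosphates and links the branch to glycolysis. Its probe sets gave different answers. By 1451015_at the signals were 4027, 4309 and 4088 in control and 8445, 8989 and 8217 after TSR, a ratio of 2.06 (log2 fold change 1.05, standard error 0.05, limma adjusted p = 1.3e-06). By the brighter 1439443_x_at they were 11227, 15157 and 11812 in control and 11961, 12956 and 11529.6 after TSR. Here the groups overlapped, with control replicate 2 above all other samples, and the log2 fold change was -0.06 (95% interval -0.29 to 0.18, limma adjusted p = 0.69). Without control replicate 2 this value was 0.075, and after quantile normalization it was 0.28 and passed (limma adjusted p = 0.0054).

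Taldo1 encodes transaldolase, which moves 3-carbon units and completes the branch. It gave 5351, 5246 and 5167 in control and 5763, 6199.7 and 5655 after TSR. The groups did not overlap, but the difference was small, with a ratio of means of 1.12 (log2 fold change 0.16, standard error 0.05, limma adjusted p = 0.025). The call was lost with median centring (0.05, adjusted p = 0.54), in limma without an intensity trend (adjusted p = 0.066), in the methods' t-test (adjusted p = 0.062) and in limma when control replicate 1 or 3, or TSR replicate 1 or 2, was left out (adjusted p = 0.0545 to 0.0751).

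Of the NADPH sources outside the pathway, Me1 rose and Idh1 and H6pd did not pass the test. Me1 encodes cytosolic malic enzyme, which turns malate into pyruvate with a gain of NADPH. By 1416632_at it gave 3268, 3170.3 and 3036 in control and 5464, 6112 and 5200.0 after TSR, a ratio of 1.77 (log2 fold change 0.82, standard error 0.06, limma adjusted p = 1.8e-05). By 1430307_a_at it gave 2747, 2968 and 2859 in control and 5962, 5916 and 5939 after TSR, a ratio of 2.08. In both probe sets the groups were far apart compared with the spread within them.

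Idh1 encodes the NADP-dependent isocitrate dehydrogenase of cytosol and peroxisomes. Its brighter probe set, 1422433_s_at, gave 7588, 8665 and 8134 in control and 7236, 7932 and 7071 after TSR, a log2 fold change of -0.13 (95% interval -0.28 to 0.01, limma adjusted p = 0.12). The other, 1419821_s_at, gave 3895, 3755 and 4036 in control and 4014, 3841 and 4150.2 after TSR, a log2 fold change of 0.04 (95% interval -0.07 to 0.15, limma adjusted p = 0.54). The groups overlapped in both. Rises above 1.11-fold lay outside the 95% intervals of the fold for both probe sets. The direction was not settled, since it differed between the probe sets, and the brighter one turned to 0.075 after quantile normalization. The brighter one passed as lower in limma with median centring (-0.24, adjusted p = 0.032) and with blocking on the replicate number (-0.13, adjusted p = 0.011).

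H6pd encodes the hexose-6-phosphate dehydrogenase of the endoplasmic reticulum, which carries out the first steps of the oxidative branch there and keeps an NADPH pool of its own. It gave 3694, 3524 and 3573 in control and 3475, 3626 and 3166 after TSR, with overlapping groups. The log2 fold change was -0.07 (95% interval -0.20 to 0.05, limma adjusted p = 0.31), and it passed as lower with median centring (-0.18, adjusted p = 0.046).

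**Figure D2:**
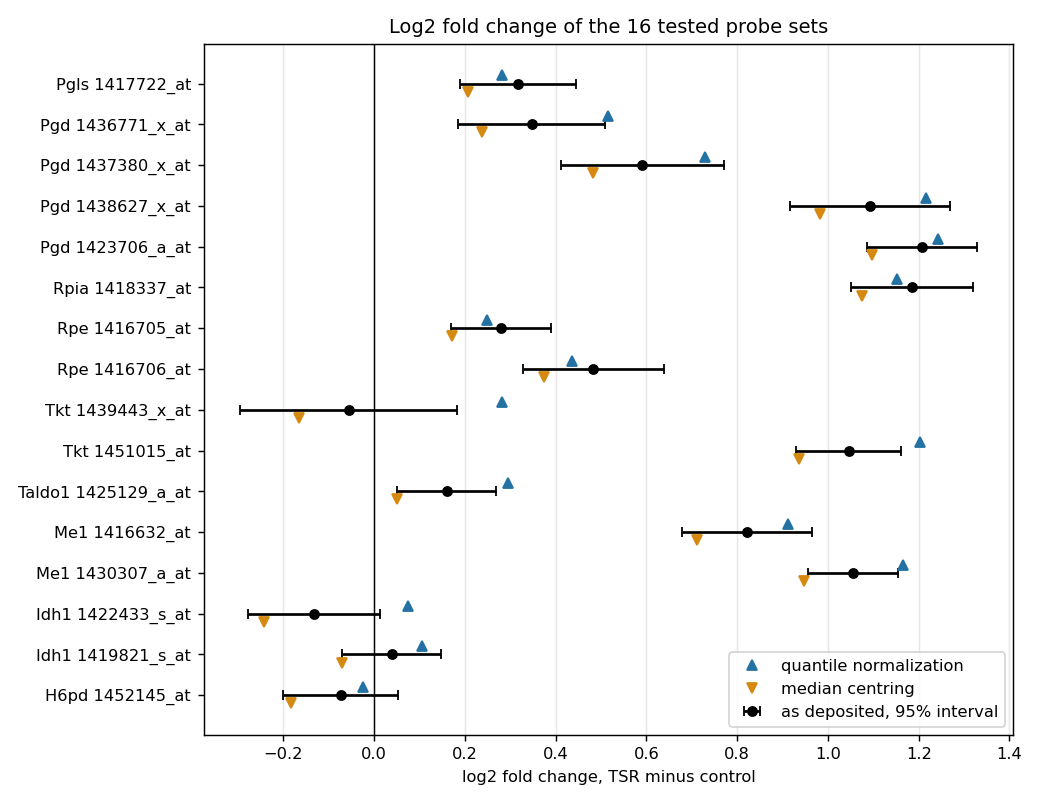
Log2 fold change (TSR minus control) of the 16 tested probe sets, with the 95% interval from limma on signals as deposited (circles with bars), and the same value after quantile normalization (upward triangles) and median centring (downward triangles), 3 samples per group. Rpia, Me1, 1451015_at of Tkt and 2 probe sets of Pgd lie above 0.7 under each scaling, while 1439443_x_at of Tkt moves from -0.06 to 0.28 with quantile normalization.

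The size of the rise differed between probe sets of the same gene, and in one direction. In each of the 5 genes with at least 2 tested probe sets, the log2 fold change was greater for the dimmest than for the brightest, which was also so for 69.2% of 3236 such genes on the whole array. The shift between probe sets was measured within each array as the difference of their log2 signals. For Tkt the dimmer minus the brighter probe set lay between -1.81 and -1.48 in the control samples and between -0.53 and -0.49 in the TSR samples. For the dimmest and the brightest probe set of Pgd it lay between -1.86 and -1.76 in control and between -1.02 and -0.86 after TSR. The groups did not overlap in either, nor for the pairs of Me1 and of the tested Rpe probe sets, with shifts of 0.23 and 0.20 (exact permutation p = 0.1 each, two-sided, the smallest that 3 against 3 samples allow). They overlapped for Idh1.

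Bright probe sets as a whole had lower fold changes after TSR. The median log2 fold change was -0.34 over the 217 probe sets with a mean log2 signal above 13, where the brighter Tkt probe set lay, and -0.18 over the 578 between 12 and 13. That second group held 1451015_at of Tkt, 3 probe sets of Pgd, both of Me1, Taldo1 and the brighter one of Idh1, and all of these lay above its median. Over the 1006 probe sets between 11 and 12 the median was -0.06, close to the value of H6pd. After quantile normalization these medians were -0.03, -0.05 and -0.02, and then 13 of the 16 probe sets rose and 0 fell. The added rise was the brighter probe set of Tkt.

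**Figure D3:**
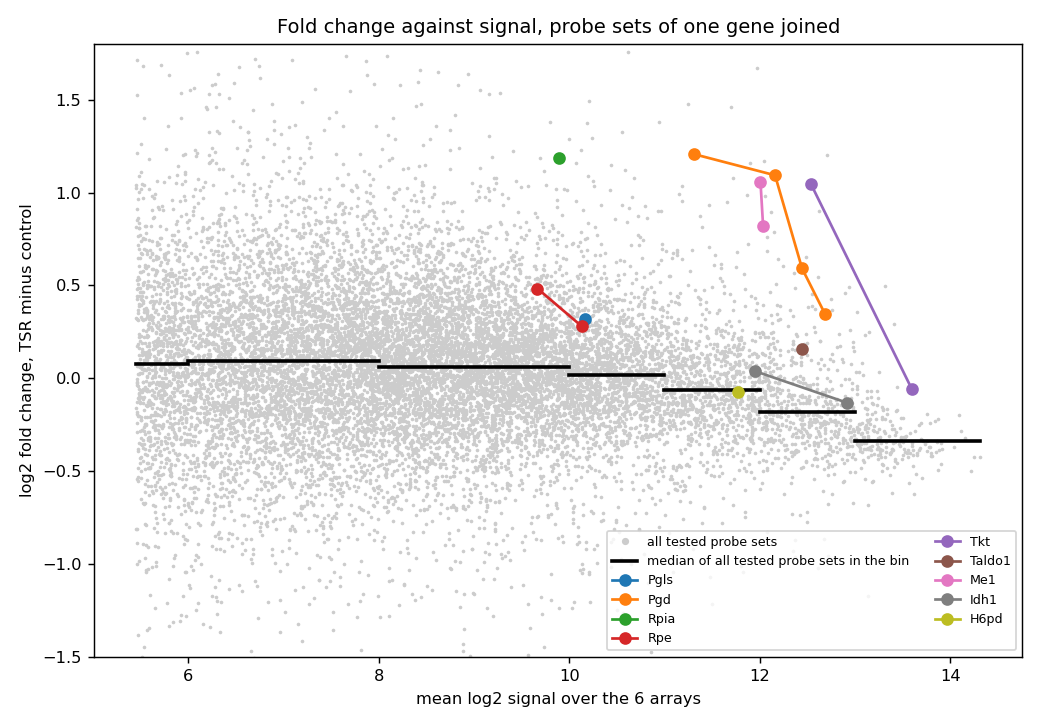
Log2 fold change (TSR minus control) against mean log2 signal over the 6 arrays, for all 14707 tested probe sets (grey points, the vertical axis cut at -1.5 and 1.8), their median within bins of signal (black lines) and the probe sets of the 9 genes (coloured, those of one gene joined). The lines of the joined probe sets all fall from left to right, and the bin medians are 0.08 and 0.09 at the lowest signals and fall from there to -0.34.

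Genes around the pathway were taken from 8 lists of routes that feed or spend the same metabolites. By their brightest probe sets, 30 of their 62 tested genes rose and 14 fell, against 24.0% and 23.0% of all genes, and 18 did not pass. With median centring falls outnumbered rises, at 18 against 16, and after quantile normalization there were 25 rises and 10 falls. The count of falls was 9 without control replicate 1. Beyond the pathway itself, genes of ribose use and other pentose steps showed no common direction, with 2 of 9 higher and 3 lower, and with 1 higher when control replicate 2 or 3 or TSR replicate 2 or 3 was left out or with either other scaling. Prps1, which makes phosphoribosyl pyrophosphate from ribose-5-phosphate, fell from 2251 ± 50.8 (SD, n = 3) to 1498 ± 27.1 (SD, n = 3), a log2 fold change of -0.59 (limma adjusted p = 1.0e-05). Dera, which cleaves deoxyribose phosphate, rose (0.44) and Pgm2, a phosphopentomutase, fell (-0.36). The call of Pgm2 was lost without control replicate 1 or 2 or TSR replicate 3 (-0.36 to -0.30, adjusted p = 0.0533 to 0.0823). The fall of Prps1 thus stood beside the rise of Rpia, whose product it uses.

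The other enzymes that make NADPH or its precursor included 5 that rose and 1 that fell among 8, against 24.0% and 23.0% of all genes tested. The median log2 fold change of these 8 was 0.17. Only 2 rose when TSR replicate 2 was left out, and 3 when control replicate 1, control replicate 3 or TSR replicate 1 was. The count of falls was 0 when TSR replicate 1 or a control replicate was left out. Aldh1l1, a cytosolic enzyme of folate metabolism that makes NADPH, rose from 2540 ± 66.7 to 3703 ± 286 (0.54). Mthfd2 of the mitochondrial folate pathway (0.33) and Idh2, the mitochondrial counterpart of Idh1 (0.29), rose less. The dimmer probe set of Mthfd2 did not pass (0.20, limma adjusted p = 0.13). Glud1, the glutamate dehydrogenase gene, fell (-0.13), but its dimmer probe set did not pass (0.10). Its call was lost without TSR replicate 1 or 3 or any one control replicate (-0.15 to -0.12, adjusted p = 0.0597 to 0.111), and that of Mthfd2 without TSR replicate 2 (0.28, adjusted p = 0.0567) and with both other scalings (0.22 each, adjusted p = 0.0873 and 0.0886). With quantile normalization 3 of these genes rose and 0 fell, and with median centring 2 rose and 2 fell.

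The shuttle that carries citrate out of mitochondria and returns malate and pyruvate supplies the substrate of malic enzyme. Of its 10 tested genes 5 rose and 2 fell, against 24.0% and 23.0% of all genes tested. Those that fell were Mdh1 and Mdh2, the cytosolic and mitochondrial malate dehydrogenase genes. Each time 1 array was left out, 1 or 0 of the genes fell (0 without control replicate 1 or 3 or TSR replicate 1), and 0 fell after quantile normalization. Acly, which splits citrate in the cytosol, rose (log2 fold change 1.20, and 0.90 and 3.12 by its dimmer tested probe sets), as did the dicarboxylate carrier Slc25a10, from 1063 ± 14.3 to 1926 ± 95.7 (0.86), and the oxoglutarate carrier Slc25a11 (0.41). Mdh1, which makes malate in the cytosol, fell by its brightest probe set (-0.15), but turned to 0.14 after quantile normalization (limma adjusted p = 0.055), and its other tested probe sets did not pass. The call was also lost without control replicate 1 or 3 or TSR replicate 1 or 2 (-0.17 to -0.14, adjusted p = 0.0514 to 0.0846). With median centring 3 of these genes rose and 3 fell.

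NADPH is spent by reductases, and those of lipid synthesis and of redox defence did not show the same counts. Of 10 tested lipid synthesis genes 7 rose and 2 fell, against 24.0% and 23.0% of all genes tested. The median log2 fold change of these 10 genes was 0.46. They included Tecr, a reductase of fatty acid elongation, which rose from 1149 ± 29.7 to 2170.3 ± 26.5 (0.92), and Sqle, the squalene epoxidase gene (0.83). Dhcr7 of cholesterol synthesis (0.73, limma adjusted p = 0.042) and Fasn, the fatty acid synthase gene and the brightest of the list (0.29, limma adjusted p = 0.019), each lost the call with median centring (adjusted p = 0.052 and 0.15). Dhcr7 also lost it with quantile normalization (0.63, adjusted p = 0.070) and without control replicate 1 or 3 or TSR replicate 1 or 3 (0.44 to 0.79, adjusted p = 0.0715 to 0.128), and Fasn without control replicate 1 or 3 or TSR replicate 1 or 2 (0.22 to 0.29, adjusted p = 0.0595 to 0.0684). Of 9 tested redox genes 1 rose and 2 fell, against the same shares of all genes tested, and 6 did not pass. The median of these 9 genes was -0.07. With median centring 0 rose and 4 fell, and when the probe sets of each gene were averaged 3 rose and 2 fell. Nqo1, a quinone reductase gene, fell from 148 ± 4.81 to 109.9 ± 11.4 (-0.43), and Txnrd1, the thioredoxin reductase gene, rose (0.22, limma adjusted p = 0.049), a call that was lost with both other scalings (adjusted p = 0.093 and 0.31) and without any one array other than control replicate 2 (0.14 to 0.23, adjusted p = 0.0912 to 0.142). Akr1a1, an aldehyde reductase gene, fell by its brightest probe set (-0.29) but not after quantile normalization (0.05), and none of its other 3 probe sets passed. The difference between the lists was not tested.

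Subunit genes of the phagocyte NADPH oxidase, which spends NADPH on superoxide, were lower where they passed. Of 5 tested oxidase genes 3 fell, against 23.0% of all genes tested. They were Cyba, from 1448 ± 120 to 830.0 ± 38.5 (log2 fold change -0.80), Ncf4 (-0.70) and Rac2 (-0.39). Rac2 lost its call without control replicate 1 or 3 or TSR replicate 2 (-0.39 to -0.29, adjusted p = 0.0634 to 0.0966) and in the methods' t-test (adjusted p = 0.076). Cybb, which encodes the catalytic subunit, went from 45.0 to 46.1 and did not pass, nor did Nox4 (45.0 and 45.5). All 10 macrophage markers were lower in every TSR sample in these arrays, and their part in the fall was not tested. In the endoplasmic reticulum, Slc37a4, which brings in glucose-6-phosphate, rose from 309.9 ± 18.3 to 483 ± 16.9 (0.64). Hsd11b1, which spends the NADPH of H6pd to regenerate corticosterone, fell from 4926 ± 267 to 4071 ± 130 (-0.27, limma adjusted p = 0.0026).

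All 9 tested genes of regulators known for control of lipogenic, NADPH or antioxidant genes rose, against 24.0% of all genes tested. Their median log2 fold change was 0.27, and the list was not split by whether a factor raises or represses its targets. Mlxipl, which encodes the glucose-sensing factor ChREBP, rose from 2025 ± 39.0 to 3560.0 ± 199 (0.81, limma adjusted p = 4.7e-06), Nr1h3, the liver X receptor alpha gene, rose by 0.75, and Thra, a thyroid hormone receptor gene, by 0.63. Srebf1, the brightest of the list, rose less (0.24, limma adjusted p = 0.0072), and its call was lost with median centring (adjusted p = 0.17). The count was 8 after quantile normalization and 4 with median centring. Beside all these lists, 33 of 34 hepatocyte markers were higher in the TSR samples, and liver is known to express many of the lipogenic and NADPH genes too. The part of RNA from liver cells in these rises was not tested.

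**Figure D4:**
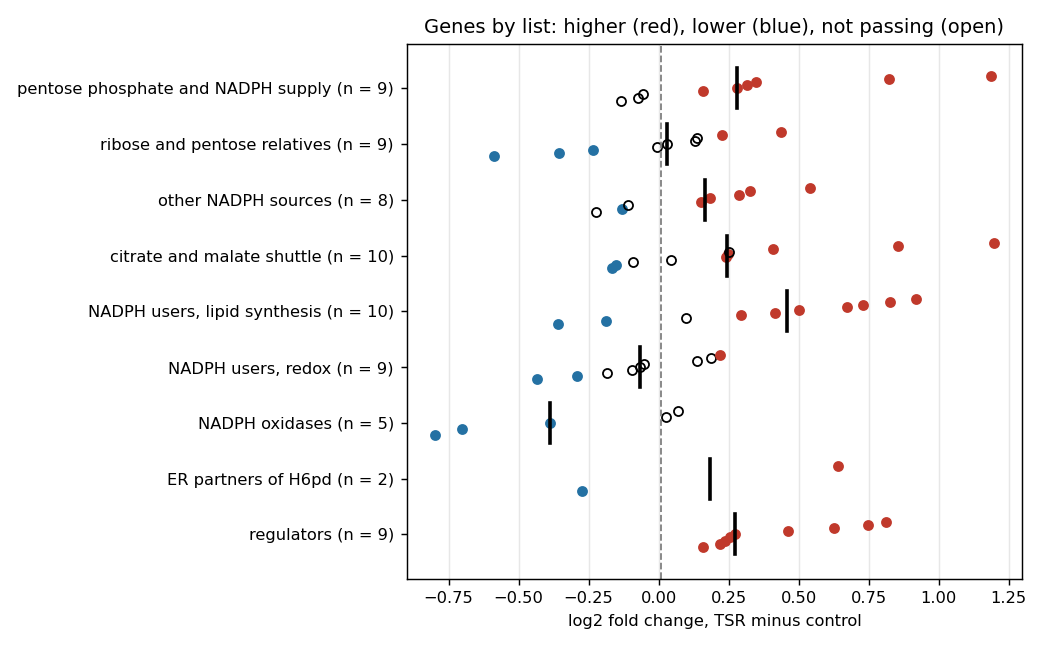
Log2 fold change (TSR minus control) of each tested gene by its brightest probe set, grouped by list, with genes that rose in red, genes that fell in blue, genes that did not pass as open circles, list medians as black lines and the median of all 8619 genes (0.01) as a dashed line. Lipid synthesis genes that spend NADPH have the highest median (0.46) and the NADPH oxidases the lowest (-0.39).

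The 250 bases before the start of each gene were read from RefSeq (GRCm38.p6), in which all 9 genes were found. Sequences are shown for the 4 genes with a probe set that rose at least 2-fold, and for H6pd, which did not pass. By their brightest probe sets, Pgd and Me1 rose less than 2-fold and Tkt did not pass. Idh1, which did not pass either, is not shown, and its first listed promoter held 2 GC boxes. Each runs 5′ to 3′ on the strand of the gene, with matches to GGGCGG (the GC box) or CCAAT (the NF-Y box) on either strand in capitals.
Pgd, minus strand, chr4:149166706-149166955: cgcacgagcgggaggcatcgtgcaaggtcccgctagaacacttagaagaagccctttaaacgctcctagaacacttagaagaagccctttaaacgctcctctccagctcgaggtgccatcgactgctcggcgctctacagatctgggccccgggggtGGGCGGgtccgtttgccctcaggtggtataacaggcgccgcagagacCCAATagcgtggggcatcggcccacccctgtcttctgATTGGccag
Rpia, minus strand, chr6:70792176-70792425: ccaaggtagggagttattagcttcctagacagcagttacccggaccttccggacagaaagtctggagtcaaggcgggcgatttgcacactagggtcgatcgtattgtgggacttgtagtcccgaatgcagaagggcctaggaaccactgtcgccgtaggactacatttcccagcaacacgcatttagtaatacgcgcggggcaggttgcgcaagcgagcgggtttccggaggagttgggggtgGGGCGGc
Tkt, plus strand, chr14:30548881-30549130: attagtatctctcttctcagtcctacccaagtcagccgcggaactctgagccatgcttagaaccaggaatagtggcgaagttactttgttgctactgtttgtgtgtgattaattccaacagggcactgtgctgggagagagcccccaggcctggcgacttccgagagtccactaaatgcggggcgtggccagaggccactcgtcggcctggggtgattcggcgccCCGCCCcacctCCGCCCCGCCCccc
Me1, minus strand, chr9:86695915-86696164: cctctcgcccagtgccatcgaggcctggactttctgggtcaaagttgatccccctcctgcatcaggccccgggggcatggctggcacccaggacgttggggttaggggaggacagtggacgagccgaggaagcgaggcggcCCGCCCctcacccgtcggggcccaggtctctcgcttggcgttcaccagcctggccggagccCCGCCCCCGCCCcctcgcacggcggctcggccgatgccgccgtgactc
H6pd, minus strand, chr4:150003237-150003486: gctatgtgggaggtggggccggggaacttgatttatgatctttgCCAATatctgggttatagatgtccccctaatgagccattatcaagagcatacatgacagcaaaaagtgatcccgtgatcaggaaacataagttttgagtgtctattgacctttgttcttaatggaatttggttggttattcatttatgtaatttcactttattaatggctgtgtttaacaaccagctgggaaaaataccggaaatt

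The first listed promoter held a GC box in 8 of the 9 genes, and H6pd was the one without. Counting all listed promoters of these genes, 9 of 12 held one, against 32.7% of 32851 promoters of the same length. The second listed promoters of Pgd and Me1 held none. The share of G and C was 38.8% to 52% in the promoters without a GC box and 54.4% to 72% in those with one. Tkt and Me1 each held 3 matches, and a pair of them overlapped by 1 base in Tkt and lay end to end in Me1. A CCAAT match was found in the first listed promoter of 4 of 9 genes, namely Pgd, Taldo1, Idh1 and H6pd. Over the 12 listed promoters it was in 5, against 33.8% of all promoters. The letters CACGTG (an E-box), TGACNNNGC (the core of the antioxidant response element) and TCACNCCAC (a sterol regulatory element core) were in none of the 12 listed promoters of these genes, against 6.02%, 10.2% and 1.05% of all promoters. The matches are a description of these windows and were not related to the fold changes by any test. Genes with GC boxes included Rpia, which rose at least 2-fold, and Idh1, which did not pass.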

How the data were processed

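RNA of epididymal WAT was hybridised to Affymetrix Mouse Genome arrays (type 430A, second version), 3 for control and 3 for TSR. The deposited values are MAS5 signal intensities from Expression Console, the version of which is not given in the sources used here, and the authors had scaled each array to one target. Tissue handling is described differently in the methods (RNAlater, lipid tissue kit) and the labels (liquid nitrogen, Trizol). Of 22690 probe sets, the platform annotation gives 20393 a single symbol, 691 more than one, and lists 1606 without; 64 are controls.

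For testing, log2 of the intensities was used. After removal of controls and of the dimmest 35% (mean log2 signal under 5.45), 14707 probe sets entered limma 3.58.1 (R 4.3.3, intensity-trended eBayes, unblocked, 4.86 prior degrees of freedom), with two-sided p-values and Benjamini-Hochberg adjustment at 0.05. A gene was represented by the probe set of highest mean log2 signal (8619 genes). A ratio or fold compares mean signals, whereas a log2 fold change subtracts mean log2 signals. Within groups the median SD of log2 signals was 0.10, and precision is limited by having 3 arrays a group. No arrays held identical values. Members, gene lists, motifs and tests were chosen with earlier results of these data known. From each related list the text names up to 3 genes with the largest change among those that passed, and the brightest gene. Cybb, Nox4, Mdh2 and Cyp2e1 were named after their values were seen.

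Other marker lists were checked by counting genes whose groups were apart. Adipocyte markers gave 2 higher and 5 lower of 8, lymphocyte markers 2 and 3 of 8, endothelial markers 3 and 3 of 8, mesothelial markers 1 and 2 of 4, epididymal markers 1 and 0 of 4, and erythroid markers 1 and 0 of 3. Over all tested probe sets, 31.4% were apart with TSR on top and 25.2% with TSR below. Some of the markers were too dim to be tested, and lists this short do not separate such counts from these shares. The code was tested on simulated data.

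Alternatives comprised the methods' t-test (Student's, on linear and on log2 signals), limma with no intensity trend, quantile normalization, centring each array on its median, filtering 0% or 50% of the probe sets, a floor at each array's 25th percentile, blocking on the replicate number, omission of single arrays and averaging the probe sets of a gene.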

Additional observations from a re-analysis of the deposited data

How the results depend on the processing

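Of 144 values of the member probe sets under the alternatives other than leaving out arrays, 134 kept their direction and side of the threshold. The rises of Pgls, Pgd, Rpia, Rpe, Me1 and the dimmer Tkt probe set did so under each of these alternatives and without any single array. With median centring 2434 probe sets rose and 4420 fell. Of the member genes 2 (2 probe sets) fell with it, and 16 genes of the related lists rose while 18 fell (30 and 14 without it). Reversed by quantile normalization were the brighter probe sets of Tkt (0.28) and Idh1 (0.075), Mdh1 (0.14) and Akr1a1 (0.048). The dimmer Idh1 probe set was -0.071 with median centring, and the brighter Tkt one ranged from -0.14 to 0.075 without single arrays, with 0.075 without control replicate 2. The replicate block left 12 member probe sets higher and 1 member gene (1 probe set, the brighter one of Idh1, adjusted p = 0.011) lower. The sample titles number the samples within each group and name no pairs, and the numbers were not read as pairs. Same-numbered samples deviated together with r = 0.02, 0.19 and 0.17, and 4 of 6 samples correlated best with their own number. These values do not settle whether the numbers mark something shared. Leaving out single arrays gave 11 to 12 higher and 0 lower member probe sets, 5 to 6 higher member genes, and 22 to 27 higher and 9 to 13 lower genes of the related lists (9 without control replicate 1). The methods' t-test on linear signals called 11 member probe sets higher. Dim probe sets such as 1448444_at of Rpe give no usable value.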
